A study of Mus musculus with 12 samples.

Results

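The response to a PGC-1beta mutation was compared between liver and quadriceps muscle of the mouse, as the response of liver (mutant minus control) minus the response of muscle (mutant minus control) for every gene measured in both tissues. All 12 arrays of the series entered, and 11833 of 18161 genes had a signal above the 40th percentile of probe sets in each tissue. The 4 groups, with 3 samples each, were control liver and control quadriceps of C57BL/6 mice and liver and quadriceps of C57BL/6 mice labelled as PGC1beta mutant, an allele that the title of the series calls hypomorphic. Total RNA was hybridised to Affymetrix Murine 430 2.0 arrays. The labels give neither the structure of the allele nor an age, and they do not say that samples of a group are separate mice, so a p-value here reads the scatter of these samples, which could be technical. The design asks whether weakening PGC-1beta changes the same genes, and in the same direction, in an organ that makes glucose and lipid and in one that burns them.

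PGC-1beta, encoded by Ppargc1b, is a transcriptional coactivator: it does not bind DNA itself but is recruited by factors such as the oestrogen-related receptors (ERR), the nuclear respiratory factors NRF1 and GABP, and YY1. Through them it raises nuclear genes for the mitochondrial respiratory chain, the ATP synthase and mitochondrial translation, and in liver it also coactivates SREBP on genes of lipid synthesis. The respiratory chain is built from nuclear and mitochondrial gene products, so a subunit's RNA, the mitochondrial ribosome, the protein import channels and the assembly factors all stand upstream of a finished complex.

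The promoters of 4 genes whose responses differed between the tissues are printed because they carry motifs of factors that recruit PGC-1beta. Atp5e encodes the epsilon subunit of the ATP synthase, Uqcc2 and Pet100 encode assembly factors of complexes III and IV, and Timm8b encodes a carrier chaperone of the import pathway. Each sequence is the 250 bases before the RefSeq start of the gene on GRCm38.p6, read 5′ to 3′ on the gene's strand, with motif matches in capitals. The stretches are chr2:174464102-174464351 on the minus strand for Atp5e, chr17:27133892-27134141 on the minus strand for Uqcc2, chr9:50603651-50603900 on the plus strand for Timm8b and chr8:3621301-3621550 on the plus strand for Pet100.
Atp5e: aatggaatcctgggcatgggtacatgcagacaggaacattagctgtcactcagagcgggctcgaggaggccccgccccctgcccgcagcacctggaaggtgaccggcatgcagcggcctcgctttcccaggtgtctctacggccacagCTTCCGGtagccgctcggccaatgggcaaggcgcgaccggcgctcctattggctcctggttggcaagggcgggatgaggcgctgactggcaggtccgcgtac
Uqcc2: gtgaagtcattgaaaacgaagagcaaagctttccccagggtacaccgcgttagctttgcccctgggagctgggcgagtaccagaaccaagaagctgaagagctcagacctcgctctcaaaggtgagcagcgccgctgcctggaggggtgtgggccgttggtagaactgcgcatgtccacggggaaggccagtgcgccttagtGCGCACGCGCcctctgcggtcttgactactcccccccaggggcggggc
Timm8b: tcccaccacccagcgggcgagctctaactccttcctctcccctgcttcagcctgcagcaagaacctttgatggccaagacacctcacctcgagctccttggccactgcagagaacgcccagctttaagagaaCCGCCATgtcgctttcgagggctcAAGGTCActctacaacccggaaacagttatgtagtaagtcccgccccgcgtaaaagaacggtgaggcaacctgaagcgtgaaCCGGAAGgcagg
Pet100: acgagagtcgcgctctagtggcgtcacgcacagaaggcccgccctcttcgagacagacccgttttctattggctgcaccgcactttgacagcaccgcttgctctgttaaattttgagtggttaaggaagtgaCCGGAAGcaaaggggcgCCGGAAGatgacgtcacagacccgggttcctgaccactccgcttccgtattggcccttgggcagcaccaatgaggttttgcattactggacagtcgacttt
In Atp5e the capitals mark the GABP letters on the opposite strand, 102 bases before the start, and in Uqcc2 the NRF1 letters, 48 bases before it. In Timm8b the YY1 letters on the opposite strand begin 118 bases before the start, the ERR letters 94 and the GABP letters 12, and Pet100 holds them at both of 2 places, at 118 and 101 bases.

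Across the promoter table, 4 motifs were searched on both strands of the 250 bases, and none of the 4 contains another. GABP letters (CCGGAAG) stood before 27 of the 106 genes with a more positive response in liver that had an entry (25.5%), before 2 of 25 with a more negative one (8%), before 14.7% of 9593 tested genes and before 7.83% of all 27025 genes in the table. NRF1 letters (GCGCA and GCGC with any 1 base between them) stood before 16 of the 106 (15.1%), none of the 25, 9.01% of tested genes and 4.23% of all. ERR letters (AAGGTCA) stood before 6 (5.66%) and 1 (4%) of these genes against 3.69% of tested genes and 4.7% of all, and YY1 letters (ATGGCGG) before 7 (6.6%) and none against 4.33% and 2.58%. These matches describe the letters of the promoters and are no measure of binding.

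Tissue identity matched the labels. The summed intensity of the measured hepatocyte markers ran from 169500 to 189900 in liver arrays and from 385 to 803 in muscle arrays, and that of skeletal muscle fibre markers from 161400 to 172100 in muscle and from 399 to 603 in liver, with the tissues normalised separately. RNA quality was uneven. The signal at the 3′ end over that at the 5′ end of Actb, Gapdh and Pcx, a mean log2 ratio called the 3′ to 5′ ratio here, was 1.90 for liver mutant 1 and 1.87 for liver mutant 3. It was 0.90 for liver mutant 2, from 0.50 to 0.97 for liver controls and from 0.33 to 0.56 for muscle. Liver mutants 1 and 3 therefore stand apart, and part of the results are also given without them. Those results rest on liver mutant 2 as the only mutant liver array.

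The response differed between the tissues in 168 genes, and in most of these liver had the larger response. Of 11833 genes, 168 (1.42%) passed the test of the liver minus muscle difference at an adjusted p under 0.05 (limma, Benjamini-Hochberg adjustment over all genes tested). The response was more positive in liver for 137 genes (1.16%) and more negative for 31 (0.262%). At an unadjusted p under 0.05 there were 1835. The difference was 0.91 on the log2 scale in the median gene of the 137, made of a liver response of 0.84 and a muscle response of -0.11, and -0.88 in the median gene of the 31, made of -0.71 and 0.11. Among the 168 the liver response was the larger in 159 genes and the muscle response in 9.

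Tested within each tissue, 446 of 13313 genes (3.35%) passed in liver and 2 of 13120 (0.0152%) in muscle, and no gene passed in both. Of the 396 genes that passed in liver and were measured in both tissues, 142 (35.9%) also passed the test of the difference between the tissues, so for the other genes called in liver a different response in muscle was not established. Of the 168 genes, 1 passed within muscle and 25 passed within neither tissue, and for those 25 the evidence lies in the contrast of the tissues. Over all 11833 genes the liver responses had an SD of 0.37 and the muscle responses an SD of 0.22, with a Pearson r of -0.02 between them across genes, which are not independent replicates. The median SE of the difference was 0.28. The arrays are bulk samples, in which fewer cells of a type and less RNA per cell cannot be told apart.

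**Figure D1:**
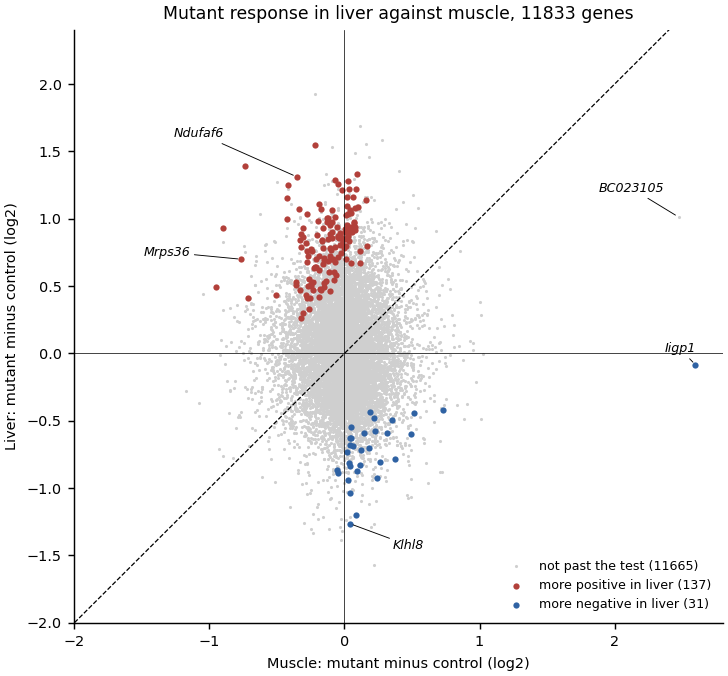
Log2 response to the mutation in muscle (x axis) and liver (y axis) for the 11833 genes measured in both tissues, with the 137 genes more positive in liver in red, the 31 more negative in blue and the dashed line marking an equal response. The coloured genes spread along the liver axis, apart from Iigp1 at 2.60 on the muscle axis.

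The calls rest on the model of variance and on single arrays of both tissues. Their number fell to 12 without liver mutant 1 and to 13 without muscle mutant 2, and rose to 391 without liver mutant 2. Without a trend of the variance on intensity 0 genes passed (limma, lowest adjusted p = 0.0528, with 1716 at an unadjusted p under 0.05). Without liver mutants 1 and 3, 10 genes passed, of which 4 were among the 168: Ciao2a, Uqcc2, Churc1 and Iigp1. All 168 differences kept their sign there, at a median of 0.90 times their size, and 158 stayed within 1.5 times. Liver mutant 2 is then the only mutant liver array. The arrays left were also used to choose the 168, so the kept signs are no independent check. With that ratio of 3′ to 5′ signal as a covariate 1 gene passed, Iigp1, and all 168 again kept their sign, with a median size of 0.83 against 0.90. The 6 other genes that passed without liver mutants 1 and 3 were those, such as Dennd3, in which liver mutant 2 lay outside the range of the 5 other liver arrays. Dennd3, named after its values were seen, read 14.95 in liver mutant 2 and 137 to 182 in the others.

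**Figure D2:**
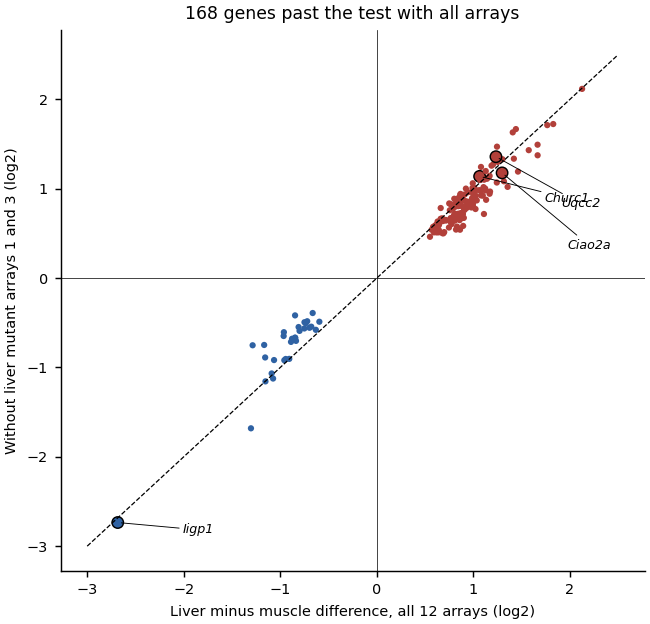
Liver minus muscle difference of the 168 genes with all 12 arrays (x axis, log2) against the same difference without liver mutants 1 and 3 (y axis, log2), with genes more positive in liver in red and more negative in blue. On the y axis liver mutant 2 is the only mutant liver array, and the arrays used there are also part of the x axis. The points keep their side of 0 and lie near the dashed line of equality, and the 4 ringed genes passed the test in both fits.

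Among the subunits of the respiratory chain and the ATP synthase the responses of the 2 tissues lay on opposite sides of 0 in most genes, low in mutant muscle and high in mutant liver. Of 81 subunits written in the 4 lists 77 were measured and 74 passed the signal filter in both tissues. Of these 74, 15 (20.3%) had a more positive response in liver and 0 a more negative one, beside 1.16% and 0.262% of all genes. The muscle response was below 0 in 74 of 74 subunits, from -0.48 to -0.04 with a median of -0.19. In 42 of them (56.8%) all 3 mutant muscle arrays lay below all 3 controls, as in 5.38% of all genes. The liver response was above 0 in 56, with a median of 0.26, and in 30 (40.5%) all mutant liver arrays lay above all controls, as in 13.4% of all genes. Both separations held together in 19 subunits (25.7%) and in 0.845% of all genes. The reverse, higher in muscle (4.21% of all genes) or lower in liver with higher in muscle (0.473%), occurred for none of the 74 in either form. None of the 74 passed the test within muscle, where the lowest adjusted p was 0.58 (limma).

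The median subunit, relative to the control mean of its tissue, stood at -0.20, -0.20 and -0.18 in the 3 mutant muscle arrays and at -0.02, 0.04 and -0.01 in the controls. In liver it stood at 0.24, 0.17 and 0.36 in mutants 1, 2 and 3 and at -0.19, 0.12 and 0.06 in controls. The muscle groups were well separated and tight. In liver, mutant 2 lay just above control 2, and control 1 was lowest. The median difference between the tissues was 0.43, ran from 0.34 to 0.50 with any 1 array left out, was 0.31 without liver mutants 1 and 3 and 0.27 with the 3′ to 5′ covariate. With the values as deposited it was 0.66 and the 74 muscle responses were again all below 0.

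**Figure D3:**
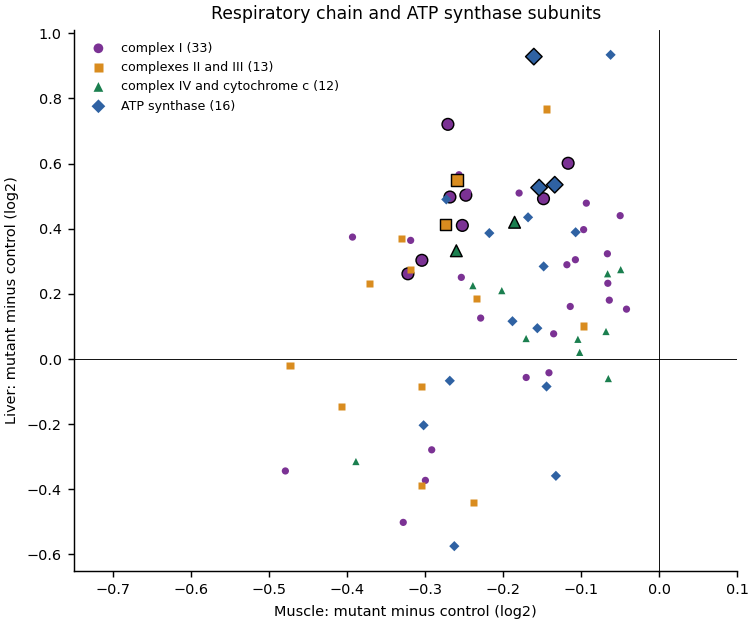
Log2 response of 74 subunits of the respiratory chain and the ATP synthase in muscle (x axis) and liver (y axis), by complex, with the 15 subunits past the test of the difference drawn large and outlined. All 74 points lie left of 0 in muscle and 56 lie above 0 in liver.

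Complex I, the NADH dehydrogenase that feeds electrons into the chain, had 8 of 33 subunits past the test, all more positive in liver, beside 1.16% of all genes. The median difference was 0.49 (0.30 in liver and -0.23 in muscle). Ndufs4, an accessory subunit needed for a stable complex, read 1082, 1135 and 954 in control liver and 1847, 1786 and 1617 in the mutants. In muscle it read 1589, 1290 and 1302 in controls and 1133, 1122 and 1187 in mutants. The groups did not overlap in either tissue and lay in opposite order, and the difference was 0.99 (SE 0.16, 95% interval 0.66 to 1.33, adjusted p = 0.0134 in limma). It was 1.01 without liver mutants 1 and 3. Ndufb6, a subunit of the membrane arm, read 1853, 1840 and 1913 in control liver and 2659, 2863 and 2457 in the mutants. In muscle, where Ndufb6 read 1865, 1789 and 1842 in controls and 1555, 1550 and 1516 in mutants, the groups were again apart in the opposite order, and the difference was 0.75 (SE 0.12, adjusted p = 0.0165). The accessory subunits Ndufa8 and Ndufb3 differed by 0.77 and 0.72. Ndufa4, which the list holds by its name but whose protein is now placed in complex IV, differed by 0.66. The list's median was 0.38 without liver mutants 1 and 3 and 0.31 with the 3′ to 5′ covariate.

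Complexes II and III carry electrons from succinate and ubiquinol to cytochrome c. Of their 13 subunits 2 passed, both more positive in liver, beside 1.16% of all genes. The median was 0.45 (0.19 in liver and -0.30 in muscle). In 11 of the 13 the mutant muscle arrays lay below all controls, as in 5.38% of all genes. The median was 0.25 without liver mutants 1 and 3, 0.22 with the covariate, 0.28 without liver control 1 and 0.70 as deposited. By array the liver median was 0.10, 0.02 and 0.37 in mutants 1, 2 and 3. Mutants 1 and 2 lay below control 2, at 0.15. Uqcr10, a small subunit of complex III, read 1448, 2302 and 1937 in control liver and 2746, 2598 and 2863 in mutants, and 2340, 2347 and 2199 in control muscle against 1933, 1997 and 1815. Its difference was 0.81 (SE 0.19, adjusted p = 0.0458), with a wide spread among the liver controls. Uqcrq, the other, differed by 0.69 (SE 0.13, adjusted p = 0.0220) with its brightest probe set and by -0.09 with the mean of its probe sets, so its direction depends on the probe set. The lowest muscle responses of the 74 were those of Ndufs1, the largest subunit of complex I, at -0.48, of Cyc1, cytochrome c1 of complex III, at -0.47, and of Sdhb, the iron-sulphur subunit of complex II, at -0.41, picked after their values were seen. Ndufs1 read 1767, 1881 and 1873 in control muscle and 1219, 1368 and 1363 in mutants, and its liver response of -0.34 was also negative, so the tissues differed by 0.14 (SE 0.20, 95% interval -0.30 to 0.57, adjusted p = 0.805).

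In complex IV, cytochrome c oxidase, and cytochrome c, 2 of 12 passed, both more positive in liver, beside 1.16% of all genes, with a median of 0.28. The median was 0.21 without liver mutants 1 and 3, 0.15 with the covariate and 0.42 as deposited. By array the liver median was 0.08, 0.08 and 0.34 in mutants 1, 2 and 3. Mutants 1 and 2 lay below control 2, at 0.14. Cox7a2, the liver-type subunit 7a, read 7910, 8219 and 7850 in control liver and 11390, 10480 and 10260 in mutants. In muscle it read 5939, 6048 and 6077 in controls and 5475, 5093 and 5318 in mutants, and the difference was 0.61 (SE 0.10, adjusted p = 0.0165). Cox4i1, the common isoform of subunit 4, differed by 0.59 (SE 0.12, adjusted p = 0.0335), from 0.33 in liver and -0.26 in muscle. Both genes had separate groups in each tissue, in opposite order.

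The ATP synthase, which makes ATP from the proton gradient, had 3 of 16 subunits past the test, all more positive in liver, beside 1.16% of all genes. The median was 0.46 with all arrays (0.34 in liver and -0.16 in muscle). The median was 0.37 without liver mutants 1 and 3 and 0.75 as deposited. Atp5e read 1929, 2010 and 1597 in control liver and 3689, 3326 and 3522 in mutants, with no overlap. In muscle it read 2419, 2472 and 2369 in controls and 2090, 2171 and 2231 in mutants. The liver rise of 0.93 and the muscle value of -0.16 put the tissues 1.09 apart (SE 0.14, 95% interval 0.80 to 1.38, adjusted p = 0.00406), which passed with any 1 array left out and was 0.99 without liver mutants 1 and 3. Atp5l and Atp5j2, small subunits of the membrane part, differed by 0.67 and 0.68 (adjusted p = 0.0243 and 0.0390 in limma); for Atp5j2 another probe set gave the opposite sign. Atp5md, a small protein of the same enzyme outside the list, read 3854, 2123 and 2075 in control liver and 5413, 6447 and 4581 in mutants, and differed by 1.41 (SE 0.31, adjusted p = 0.0391).

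The tissues did not move apart in every subunit. In 6 of the 74 the difference was below 0, down to -0.31, and in each of these the liver response was itself negative. Atp5a1 and Atp5b, the alpha and beta subunits that form the catalytic head of the ATP synthase, gave liver responses of -0.57 and -0.36 and muscle responses of -0.26 and -0.13. Sdha, the flavoprotein of complex II, gave -0.44 and -0.24, and Ndufv1, the NADH-binding flavoprotein of complex I, -0.50 and -0.33. These 4 were picked after their values were seen, none passed the test of the difference (adjusted p from 0.520 to 0.840 in limma), and with the values as deposited the differences of Atp5b and Sdha were 0.03 and 0.00.

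Of 29 assembly factors of the chain 4 passed, all more positive in liver, beside 1.16% of all genes, with a list median of 0.41. The median was 0.22 without liver mutants 1 and 3 and 0.24 with the covariate. Ndufaf6, a complex I assembly factor with the largest positive difference among genes with a group mean of at least 100, read 174, 219 and 205 in control liver and 631, 424.5 and 514 in mutants, and 159, 213 and 291 in control muscle against 156, 146.5 and 195. Its difference was 1.67 (SE 0.28, 95% interval 1.06 to 2.27, adjusted p = 0.0165), with a liver rise of 1.31 and a muscle response of -0.35, and 1.38 without liver mutants 1 and 3. Uqcc2 read 606, 554 and 501 in control liver and 1420, 1468 and 1065 in mutants, and 2249, 2079 and 2264 in control muscle against 2109, 2162 and 2237. The liver groups were far apart while the muscle groups overlapped, and the difference of 1.24 (SE 0.17, adjusted p = 0.00807) passed with any 1 array left out and was 1.36 without liver mutants 1 and 3. Another probe set of Uqcc2 gave a smaller difference of 0.48. Pet100 rose in liver from 683 ± 121 to 1653 ± 259 (SD, n = 3), with 350 ± 21.3 and 340 ± 47.2 in muscle, which differed by 1.30 (SE 0.22, adjusted p = 0.0165). The copper chaperone Cox17 and the complex IV factor Coa3 differed by 0.83 and 0.86. Smim4, a small protein of complex III assembly outside the list, differed by 1.36, with 240 ± 43.3 and 611 ± 119 in liver.

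The mitochondrial ribosome, which translates the subunits encoded in mitochondrial DNA, had 9 of 75 proteins past the test, all more positive in liver, beside 1.16% of all genes. The difference was positive in 71 of 75, beside 6195 of all 11833 genes, with a median of 0.55 (0.46 in liver and -0.11 in muscle). Mrps36, a small protein first assigned to this ribosome, read 241, 242 and 270 in control liver and 450, 345 and 466.5 in mutants. In muscle it read 773, 562 and 712 in controls and 423, 283 and 501 in mutants. It differed by 1.46 (SE 0.27, adjusted p = 0.0217) and is 1 of the 9 genes whose muscle response was the larger, at -0.76 against 0.70. Mrpl41, Mrpl46 and Mrpl54, proteins of the large subunit, differed by 1.11, 1.08 and 0.89. The list's median by array was 0.52, 0.24 and 0.53 in liver mutants 1, 2 and 3 and from -0.14 to 0.12 in liver controls, and the highest were mutants 1 and 3. The median difference was 0.37 without them and 0.36 with the covariate. Tefm, the elongation factor of mitochondrial transcription, read 184, 207 and 139 in control liver and 419, 345 and 333.5 in mutants, and 201.5, 208 and 200 in control muscle against 153.5, 158 and 132. The groups were apart in both tissues in opposite order, and the difference of 1.42 (SE 0.22, adjusted p = 0.0108) passed with any 1 array left out. Tfam, which packages and transcribes mitochondrial DNA, gave 0.67 (adjusted p = 0.142) and did not pass.

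Mitochondrial protein import brings these proteins into the organelle. Of 31 genes 7 passed, all more positive in liver, beside 1.16% of all genes. The median was 0.45 with all arrays and also 0.45 without liver mutants 1 and 3. Tomm7, a small subunit of the outer membrane channel, read 491, 512 and 374 in control liver and 1070, 975 and 878 in mutants, against 303, 308 and 334 and then 261, 298 and 326 in muscle, and differed by 1.16 (SE 0.20, adjusted p = 0.0165). Another of its probe sets had the opposite sign. Timm8b read 373, 331 and 284 in control liver and 830, 748.5 and 592 in mutants, with muscle at 573 ± 23.3 and 584 ± 58.6, and differed by 1.07 (SE 0.20, adjusted p = 0.0249). Tomm20, the receptor of the outer membrane, differed by 0.86, and Hspe1, the co-chaperonin of the matrix, by 0.71. In Hspe1 the groups were apart in both tissues, with 3417 ± 221 and 4612 ± 212 in liver and 886.5 ± 89.5 and 725 ± 50.6 in muscle. Mff, the receptor that recruits the fission machinery, was the only one of 15 fusion and fission genes to pass, at 0.89.

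**Figure D4:**
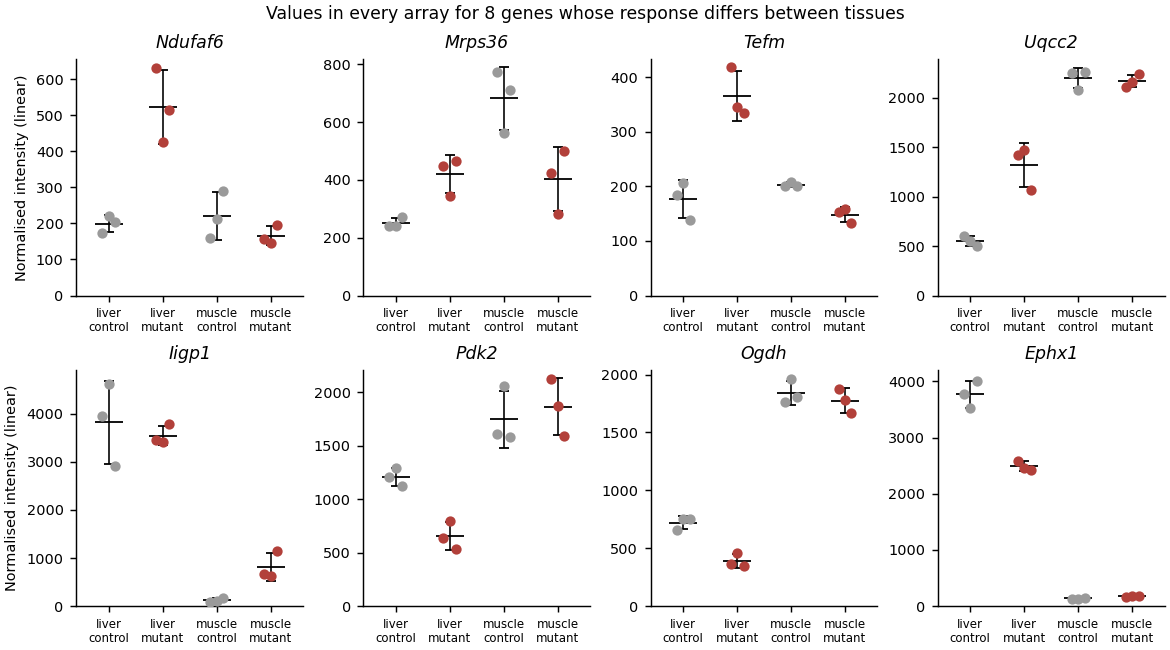
Normalised linear intensity (y axis) of 8 genes in every array, by tissue and genotype, with control arrays grey, mutant arrays red, and the bar and whiskers at the mean ± SD of 3 arrays; each panel has its own scale from 0. Tefm and Mrps36 move in opposite directions in the tissues, Ndufaf6 and Uqcc2 separate in liver only, and Iigp1 separates in muscle only.

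In the lists for fuel oxidation upstream of the chain few genes passed. Each was more negative in liver, a call made in 0.262% of all genes. Of 17 genes of the TCA cycle 1 passed, Ogdh, the E1 subunit of the 2-oxoglutarate dehydrogenase, which was more negative in liver. It read 659, 755 and 749 in control liver and 362, 462 and 351 in mutants, with 1842 ± 106 and 1775 ± 104 in muscle, and differed by -0.81 (SE 0.17, adjusted p = 0.0331). It was -0.55 without liver mutants 1 and 3. The list's median difference was 0.16, with 9 of 17 genes above 0, and was 0.01 without liver mutants 1 and 3. Its median response was -0.22 in liver and -0.23 in muscle. In muscle 16 of 17 genes were below 0 and 12 had mutant arrays below all controls, beside 5.38% of all genes. With the values as deposited the liver median was -0.02. Of 11 genes of the pyruvate dehydrogenase complex and its kinases 1 passed, Pdk2, a kinase that switches the complex off. It read 1205, 1291 and 1120 in control liver and 638, 799 and 537 in mutants, with overlapping groups in muscle, and differed by -0.96 (SE 0.21, adjusted p = 0.0391). Most of that list lay the other way, with 8 of 11 genes above 0. Its median difference was 0.18, and 0.06 without liver mutants 1 and 3.

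Mitochondrial beta-oxidation had none of 19 genes past the test, with a median of -0.02, made of -0.18 in liver and -0.17 in muscle. The liver median was 0.10 with the values as deposited. In muscle 17 of 19 genes were below 0, and 7 had mutant arrays below all controls, beside 5.38% of all genes. In liver 7 had mutant arrays below all controls, beside 11.1% of all genes, and 2 above them, beside 13.4%. Cpt1a, the liver isoform of the carnitine transferase that admits fatty acids, read 5457, 4931 and 4074 in control liver and 2416, 3983 and 2300 in mutants, with the mutants of high 3′ to 5′ ratio lowest. Its difference was -0.83 (SE 0.28, adjusted p = 0.155) and -0.32 without those arrays. Hadha, of the trifunctional protein, had mutant arrays below all controls in both tissues, with responses of -0.61 and -0.22. Hsd17b4, the bifunctional enzyme of peroxisomal oxidation, was the 1 of 17 genes of the PPARalpha and peroxisomal list to pass. It read 2983, 2979 and 3009 in control liver and 1492, 2016 and 1912 in mutants, with 245 ± 26.3 and 247.5 ± 10.8 in muscle, and differed by -0.75 (SE 0.18, adjusted p = 0.0495).

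In the lists for lipid synthesis, insulin signalling and glucose production no gene passed, and their medians lay below that of all genes, 0.03. Fatty acid and triglyceride synthesis had a median of -0.45 over 29 genes (-0.37 in liver and 0.05 in muscle), with array medians of -0.42 and -0.43 in liver mutants 1 and 3 and -0.05 in liver mutant 2. Without mutants 1 and 3 the median was -0.14, and with the covariate -0.24. Acly, which makes cytosolic acetyl-CoA for lipid synthesis, read 1258, 1790 and 974 in mutant liver against 1657 to 2648 in controls, and differed by -0.97 (adjusted p = 0.114). Insulin and IGF signalling had a median of -0.30, and -0.19 without mutants 1 and 3, with 30 of 34 genes below 0, beside 5638 of all 11833 genes. Foxo1, the forkhead factor that insulin restrains, read 526, 420.5 and 411.5 in control liver and 253, 306 and 294 in mutants, with 133 ± 7.86 and 137 ± 5.65 in muscle, and differed by -0.68 (SE 0.19, adjusted p = 0.102). Igf1, the liver-derived growth factor, differed by -0.89 (SE 0.22, adjusted p = 0.0630). Scap, the escort protein of SREBP, differed by -0.84 (SE 0.21, adjusted p = 0.0620). Gluconeogenesis had a median of -0.29 over 14 genes, and 9 had all mutant liver arrays below the controls, beside 11.1% of all genes. The median was -0.16 as deposited and -0.09 with the mean of the probe sets.

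**Figure D5:**
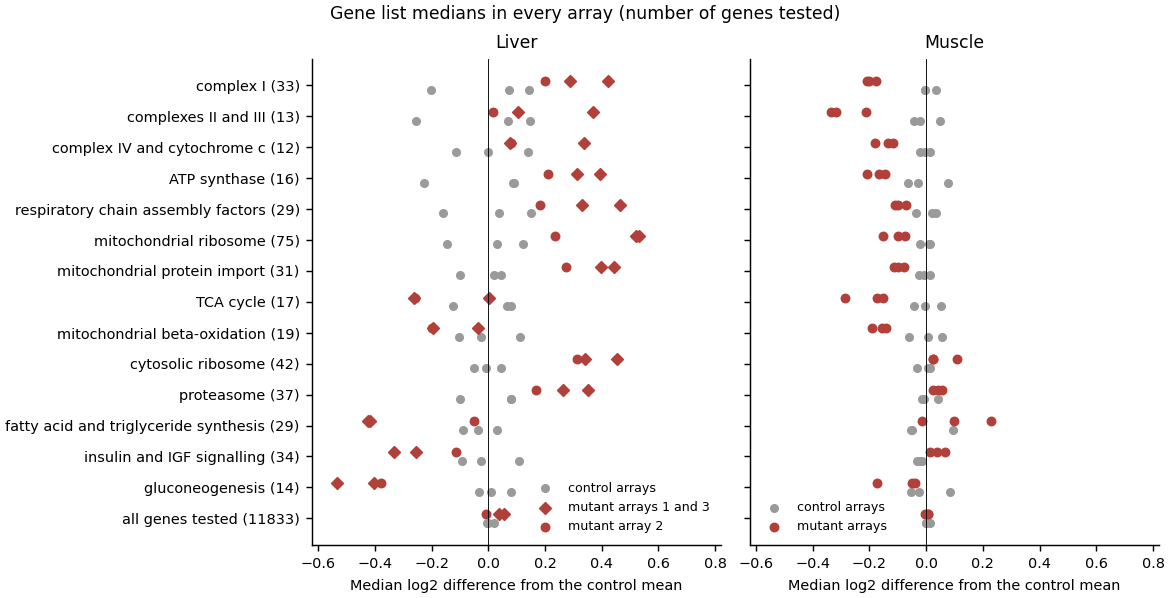
Median log2 value of 14 gene lists and of all genes tested in every array, relative to the control mean of the tissue (x axis), in liver (left) and muscle (right), with controls grey and mutants red; diamonds are liver mutants 1 and 3, which have high 3′ to 5′ ratios. Respiratory complexes, the mitochondrial ribosome and import lie right of 0 in mutant liver and left of 0 in mutant muscle, and fatty acid synthesis and insulin signalling lie left of 0 mainly in liver mutants 1 and 3. For complexes II and III and for complex IV, liver mutants 1 and 2 lie below liver control 2.

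In the lists for protein synthesis and turnover a few genes passed, all more positive in liver, beside 1.16% of all genes. Of 42 cytosolic ribosomal proteins Rps14 and Rpl13a passed, at 0.68 and 0.63, with a list median of 0.31 (0.38 in liver and 0.06 in muscle) and of 0.56 as deposited. In 29 of the 42 all mutant liver arrays lay above all controls, as in 13.4% of all genes. Rpl13a read 5246, 4557 and 5765 in control liver and 9379, 8782 and 8782 in mutants. Such genes have many processed copies, which a probe set may also read. Of 37 proteasome genes the core subunits Psma7 and Psma3 passed, at 0.94 and 0.55, with a list median of 0.29. It was 0.16 without liver mutants 1 and 3 and 0.15 with the covariate. Snrpg and Snrpe, Sm proteins of the spliceosome, passed at 0.99 and 0.84 in a list of 43 whose median was 0.05 and ran from -0.02 to 0.21 with 1 array left out. Bola3, a late factor of iron-sulphur cluster assembly, was the 1 of 27 in its list, at 0.66, with groups apart in opposite order in the tissues. Ciao2a, of the cytosolic iron-sulphur assembly machinery and outside that list, read 742.5, 738 and 750 in control liver and 1780, 1520 and 1572 in mutants, against 539 ± 39.2 and 471 ± 42.1 in muscle. Its difference of 1.30 (SE 0.16, 95% interval 0.97 to 1.63, adjusted p = 0.00355) passed with any 1 array left out and without liver mutants 1 and 3.

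Other genes with large positive differences came from many processes. Gng11, a G protein gamma subunit, read 92.4, 99.7 and 78.4 in control liver and 285, 207 and 222 in mutants, while muscle lay at 360 ± 6.23 in controls and 269 ± 53.2 in mutants, with separate groups in opposite order. It differed by 1.67 (SE 0.23, adjusted p = 0.00807). Cyba, the p22phox subunit of the NADPH oxidase, differed by 1.58, Ccdc58, a mitochondrial protein, by 1.24, and Znhit3, a zinc finger protein of box C/D RNP assembly, by 1.25. The depalmitoylase gene Abhd17b and Cebpzos differed by 1.32 and 1.21. Churc1, named because it kept its call without liver mutants 1 and 3, differed by 1.07 (SE 0.15, adjusted p = 0.00969). Vpreb3, a B lineage gene of the lymphocyte markers, differed by 2.13 (SE 0.43, adjusted p = 0.0315), from 12.25 to 33.0 in control liver and 75.3 to 85.4 in mutants, at intensities near the offset of 16. The 9 lymphocyte markers tested had a median response of 0.41 in liver, where 7 were above 0, and of 0.08 in muscle. Their median difference was 0.18, and 0.09 without liver mutants 1 and 3.

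Macrophage markers moved with liver genotype. Of 17 measured in both tissues 2 passed, Tyrobp and Cd5l, both more positive in liver, beside 1.16% of all genes. The difference was above 0 in 16, beside 6195 of all 11833 genes, with a median of 0.50 (0.41 in liver and 0.01 in muscle). The median was 0.28 without muscle mutant 2 and 0.34 with the covariate. The sum of all 22 macrophage markers, before the signal filter, ran from 4926 to 6215 in control liver and 7490 to 8481 in mutants. In muscle it ran from 1554 to 1905 and from 1355 to 2129. Tyrobp, the adaptor of activating immune receptors, read 119, 124.5 and 110 in control liver and 371, 285 and 313 in mutants, and differed by 1.24 (SE 0.22, adjusted p = 0.0179). Cd5l, a protein secreted by Kupffer cells, differed by 1.12 (adjusted p = 0.0358), but its larger response was the fall in muscle, at low intensities. It read 25.9, 20.3 and 22.7 in control muscle and 6.27, 8.47 and 8.45 in mutants. Batf2, an interferon-induced factor of macrophages, differed by 1.26 (adjusted p = 0.0495). The part of these markers in the differences of other genes was not tested.

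The 31 genes with a more negative response in liver were led by Iigp1, an interferon-inducible GTPase, for which the change was in muscle. It read 92.75, 99.3 and 168 in control muscle and 670, 629 and 1142 in mutants, and from 2908 to 4613 in control liver against 3408 to 3775 in mutants. The muscle groups were far apart and the liver groups overlapped. The difference was -2.68 (SE 0.33, 95% interval -3.38 to -1.99, adjusted p = 0.00355), with a muscle rise of 2.60 (adjusted p = 0.00707) and a liver response of -0.08, and it passed with any 1 array left out. In its list of 35 interferon-stimulated genes Batf2 was the other to pass, in the opposite direction, beside 1.42% of all genes in either direction. The list's median was 0.44. It was 0.27 without liver mutants 1 and 3, 0.26 without liver control 3 and 0.07 with the covariate. The other gene called in muscle, BC023105, read 429.5, 487 and 703 in control muscle and 2805, 3568 and 2714 in mutants, but its liver response of 1.01 was uncertain and the tissues differed by -1.46 (SE 0.62, 95% interval -2.78 to -0.14, adjusted p = 0.271). Iigp1, BC023105 and Ppargc1b lie on chromosome 18. Of 13 tested genes between Iigp1 and Ppargc1b 1 passed (Rps14), beside 1.42% of all genes. The differences of the 13 ran from -1.46, the value also given for BC023105, to 0.68 for Rps14.

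Several of the other negative genes had separate groups in both tissues. Ephx1, the microsomal epoxide hydrolase, read 3768, 3526 and 4013 in control liver and 2586, 2452 and 2428 in mutants, and 132, 135 and 145 in control muscle against 155, 185 and 185. The groups were apart in both tissues in opposite order, and the difference of -0.91 (SE 0.15, adjusted p = 0.0165) was -0.90 without liver mutants 1 and 3. Cyp2d22, a cytochrome P450, and Cfb, complement factor B, differed by -1.16 and -0.96 with the same separation, with low muscle intensities of 10.6 to 55.5. Gne, the key enzyme of sialic acid synthesis, differed by -0.89, and Pgm1, phosphoglucomutase, by -0.75; another probe set of Pgm1 gave the opposite sign. Abhd15, an adipose hydrolase family protein, differed by -1.15, with muscle at 9.80 ± 3.36 and 27.1 ± 8.41, and Pcsk6, a proprotein convertase, by -1.09.

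Among the negative genes some were dim, and many were lowest in the arrays of high 3′ to 5′ ratio. Klhl8, a substrate adaptor of ubiquitin ligases, read 36.9, 69.4 and 41.1 in control liver and 15.5, 4.6 and 12.7 in mutants, close to the offset, and differed by -1.30. Taok1, a kinase of the Hippo and stress pathways, read 358, 309 and 338 in control liver and 139, 204 and 88.4 in mutants, and differed by -1.29, but by -0.75 without liver mutants 1 and 3. Usp8, a deubiquitinase of endosomes, and Prpf8, a core splicing factor, differed by -1.17 and -0.96 and by -0.75 and -0.60 without those arrays. Lpp, a focal adhesion protein, Myo18a, an unconventional myosin, and Wbp2, a transcription cofactor, differed by -1.06, -0.88 and -0.85, with another probe set of Lpp of opposite sign. In Taok1, Usp8 and Prpf8 liver mutants 1 and 3 were the lowest of the 6 liver arrays. This was also so in Cyp2d22, Gne, Pgm1, Pdk2, Ogdh, Hsd17b4, Myo18a and Wbp2. It was not so in Ephx1, Abhd15, Pcsk6, Cfb, Klhl8 or Iigp1. Fn1, fibronectin, which was not called (-1.13, adjusted p = 0.0902), had the order of Taok1, with 2974, 5162 and 2895 in mutants 1, 2 and 3.

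In further lists none passed. Circadian clock genes had a median of -0.34 over 17 genes, with array medians of -0.30, 0.02 and -0.17 in the liver mutants. The median was -0.22 without liver mutant 1 and -0.18 with the covariate. Collagen and extracellular matrix had a median of -0.34 over 35, and muscle mutant 3 stood at 0.57 against -0.05 and 0.00 in the other muscle mutants. Its median was -0.12 without that array and -0.14 without muscle control 2. Cholesterol synthesis had a median of -0.24 over 21, of -0.11 without liver mutants 1 and 3, -0.08 with the covariate and -0.14 as deposited or without liver control 1. The median was -0.14 over 37 genes for the stress response of the endoplasmic reticulum, -0.11 over 33 for aminoacyl-tRNA synthetases and 0.03 over 34 for antioxidant enzymes, with ranges of -0.22 to -0.08, -0.18 to -0.06 and -0.05 to 0.10 when 1 array was left out. Adipocyte markers had the lowest median of the marker lists, -0.90 over 6 genes, -0.58 without liver mutants 1 and 3, -0.50 with the covariate and -0.46 with the mean of the probe sets. The summed intensity of all 13 adipocyte markers measured, before the signal filter, ran from 7925 to 14190 in control muscle and from 13550 to 17310 in mutants. In liver it ran from 20520 to 23720 and from 16270 to 22860. The muscle sums of the groups overlapped and leaned to the mutants, and the part of adipocyte RNA in other differences was not tested.

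Gene length moved with the direction of the difference. The median span of the gene in RefSeq was 8.83 kb for the 137 genes more positive in liver, 49.2 kb for the 31 more negative and 22.75 kb for all genes tested. In 5 equal classes by span, from the shortest genes to the longest, the median difference was 0.14, 0.08, 0.04, -0.04 and -0.09. The part of gene length in the results was not tested. Of the 168 genes, 80 had another probe set measured, which had the same sign in 68, and 12 had at least 1 probe set of opposite sign. The size could still differ, as in these examples. Another probe set gave -0.34 against -1.17 for Usp8, -0.19 against -0.89 for Gne and -0.30 against -0.75 for Hsd17b4. For Ndufb6 it was the larger, at 1.04 against 0.75.

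Ppargc1b itself did not differ between the tissues beyond its spread. It read 547, 283 and 481 in control liver and 404, 493.5 and 203 in mutants, and 302, 285 and 332 in control muscle against 423, 280 and 271, with overlapping groups in each. The difference was -0.34 (SE 0.40, 95% interval -1.19 to 0.52, adjusted p = 0.742 in limma), and the position of its probe set against the mutated part of the gene was not stated in the sources. Ppargc1a, its close relative, gave -0.57 (SE 0.43, adjusted p = 0.568). Without liver mutants 1 and 3 these values were 0.16 and 0.18, so neither direction is settled. Of 24 coactivators and partner receptors in the list none passed, with a median of 0.04 that became 0.17 without liver mutants 1 and 3 and ran from -0.06 to 0.12 with 1 array left out.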

How the data were processed

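The authors deposited a linear intensity for each probe set and array. The algorithm and scaling behind it are not stated in the sources, and the labels' design text names d-Chip for clustering only. Control probe sets (64 of 45101) were left out. Single symbols (34945 probe sets, of which 34741 matched by Entrez ID to the GRCm38.p6 RefSeq table) gave 18161 genes, each read from its brightest probe set. Values were quantile-normalised within tissue as log2(value + 16); the offset understates changes of dim genes. Genes above the 40th percentile in both tissues were tested with limma 3.58.1 (R 4.3.3; 4 group means, interaction contrast, variance trend), checked on simulated data. Sequences come from RefSeq. Scripts ran in Python 3.11.15 with matplotlib 3.10.9.

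Members and gene lists were chosen with earlier results of these data known; 1146 of 1273 list entries were measured. Genes named were Ppargc1b, Ppargc1a, the 15 largest differences each way with a group mean of at least 100, and up to 4 called members of each list, or the 2 with the smallest p; others are said to be picked after their values were seen. Alternatives covered offset, filter, scaling, variance model, probe sets, threshold, blocks, the 3′ to 5′ ratio and left-out arrays. Between arrays r was 0.946 to 0.966 (liver) and 0.967 to 0.976 (muscle), and no array was a duplicate. The number of arrays limits the precision. Scanner files were not used here.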

Additional observations from a re-analysis of the deposited data

Results flagged for a closer look

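The responses of liver and muscle differed by the interaction test in 168 genes, and the values below are the log2 liver minus muscle differences of those named. In the respiratory chain they were 0.99 for Ndufs4, 0.75 for Ndufb6, 0.66 for Ndufa4, 0.77 for Ndufa8, 0.72 for Ndufb3, 0.69 for Uqcrq, 0.81 for Uqcr10, 0.61 for Cox7a2 and 0.59 for Cox4i1. ATP synthase genes had 1.09 for Atp5e, 0.67 for Atp5l, 0.68 for Atp5j2 and 1.41 for Atp5md. Assembly factors had 1.67 for Ndufaf6, 1.24 for Uqcc2, 1.30 for Pet100, 1.36 for Smim4, 0.83 for Cox17 and 0.86 for Coa3.

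Genes of mitochondrial gene expression had 1.46 for Mrps36, 1.42 for Tefm, 1.11 for Mrpl41, 0.89 for Mrpl54 and 1.08 for Mrpl46. For import and fission the differences were 1.16 for Tomm7, 0.86 for Tomm20, 1.07 for Timm8b, 0.71 for Hspe1 and 0.89 for Mff. Iron-sulphur assembly had 1.30 for Ciao2a and 0.66 for Bola3. Ribosome, proteasome and spliceosome genes had 0.68 for Rps14, 0.63 for Rpl13a, 0.94 for Psma7, 0.55 for Psma3, 0.99 for Snrpg and 0.84 for Snrpe.

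Immune genes had 1.24 for Tyrobp, 1.12 for Cd5l, 2.13 for Vpreb3, 1.26 for Batf2 and 1.58 for Cyba. The remaining positive differences were 1.67 for Gng11, 1.32 for Abhd17b, 1.25 for Znhit3, 1.24 for Ccdc58, 1.21 for Cebpzos and 1.07 for Churc1.

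Negative differences were largest for Iigp1 (-2.68), the only one among the 31 with a muscle response past the test. Other enzymes and secreted proteins had -1.16 for Cyp2d22, -0.96 for Cfb, -0.91 for Ephx1, -0.89 for Gne, -1.15 for Abhd15 and -1.09 for Pcsk6. Fuel oxidation and glycogen genes had -0.96 for Pdk2, -0.81 for Ogdh, -0.75 for Hsd17b4 and -0.75 for Pgm1. The rest were -1.30 for Klhl8, -1.29 for Taok1, -1.17 for Usp8, -1.06 for Lpp, -0.96 for Prpf8, -0.88 for Myo18a and -0.85 for Wbp2.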

How the results depend on the processing

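The 168 differences kept their sign in each fit run on single probe sets in which the gene was tested, and 166 of 167 kept it with the mean of the probe sets, but their number moved widely. It was 58 with no filter, 57 as deposited, 58 with median centring, 85 with the mean of all probe sets, 0 without a variance trend, 346 at a threshold of 0.1, 1 with the 3′ to 5′ covariate and 10 without liver mutants 1 and 3. The share more positive in liver was 81.5% of the calls, and 96.5% and 96.6% as deposited and with median centring. With 1 array left out the number ran from 12 (without liver mutant 1) to 391 (without liver mutant 2), and it was 13 without muscle mutant 2, 31 and 34 without muscle controls 2 and 1, 55, 58 and 67 without muscle mutant 1, muscle control 3 and muscle mutant 3, 71 and 80 without liver controls 3 and 1, 98 without liver mutant 3 and 114 without liver control 2. The cause was not tested.

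Within liver the 446 calls became 219 with no filter, 296 as deposited, 172 with the mean of all probe sets, 0 without a variance trend, 1024 at a threshold of 0.1, 2 with the 3′ to 5′ covariate, 0 without liver mutants 1 and 3 and 993 in the fit of all 12 arrays, and ran from 0 (without liver mutant 1 or liver control 2) to 735 (without liver mutant 2). At an unadjusted p under 0.05 there were 2330 without the trend, 1093 without liver mutants 1 and 3, 1750 without liver mutant 1 and 2283 without liver control 2 (limma). Within muscle the 2 calls became 0 without a variance trend (590 at an unadjusted p under 0.05), 1 with the mean of all probe sets and 1 in the fit of all 12 arrays, and ran from 1 to 2.

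The sample numbers are shared by the groups, but the labels do not say that a number pairs samples. Deviations from the group means had r from -0.12 to 0.18 between arrays of the same number, and from -0.14 to 0.11 between those of different numbers. For liver and muscle arrays of the same number and genotype r ran from -0.03 to 0.03. With a block for the sample number 104 genes passed for the difference and 11 within liver, and 178 passed for the difference with genotype and number as a random block. The signs turned for Uqcrq (-0.090) and Atp5a1 (0.073) with the mean of the probe sets, Atp5b (0.027 as deposited, 0.0095 with median centring) and Sdha (0.0027 as deposited). With 1 array left out Ndufv1 ran from -0.47 to 0.065 (without liver control 3), Ndufs1 from -0.030 (without liver control 1) to 0.24 and Ppargc1b from -0.61 to 0.023 (without liver mutant 3). Ppargc1b and Ppargc1a were 0.36 and 0.32 with the covariate and 0.16 and 0.18 without liver mutants 1 and 3. Of the medians of gene lists under the alternatives, 1261 moved by less than the spread between arrays and 165 by more. Probe sets dim in 1 tissue were not tested for the difference.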
